A study of Mus musculus with 10 samples.

Results

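The fetal kidney holds resident macrophages, and 10 genes that mark them were followed here through RNA sequencing of whole mouse kidneys. The genes were *Csf1r*, *Cx3cr1*, *Adgre1*, *C1qa*, *C1qb*, *C1qc*, *Mrc1*, *Lyve1*, *Cd68* and *Ptprc*. They were picked by symbol from the deposited expression table, where each was found once, and made up 10 of its 35663 entries. The study asked how loss of netrin 1 (*Ntn1*), a secreted guidance cue made by stromal progenitors, affects the developing kidney and its vessels. All 10 libraries came from C57/b6 mouse embryos at E13.5, before the kidney is complete. The wild-type group had 4 libraries, the Foxd1-Cre group (Foxd1GC control) had 3, and the Foxd1-Cre; Ntn1c/c group (Ntn1SPKO), in which both copies of *Ntn1* are floxed, had 3. Control and mutant kidneys shared the Foxd1GC allele, which drives Cre from *Foxd1* in cortical stromal progenitors and not from a macrophage gene, and the wild-type kidneys lacked it. The labels do not say whether a library is 1 embryo or a pool of kidneys.

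Tissue macrophages arise first from yolk sac and fetal liver progenitors, enter organs early in development and then live there. They depend on the growth factor receptor Csf1r, whose ligands are Csf1 and Il34. In developing organs they are known for clearing dying cells, for releasing complement C1q and for lying close to growing vessels. The perivascular kind carries the mannose receptor Mrc1 and the hyaluronan receptor Lyve1. *Lyve1* and *Mrc1* are also made by lymphatic and sinusoidal endothelium, and *Ptprc*, which encodes CD45, is made by nearly all white blood cells.

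Values were FPKM, fragment counts scaled for transcript length and library size, a level per length that allows genes to be compared. Their median-of-ratios factors were 1.00 in every library, while summed FPKM ran from 795829 to 1002638, so totals were not set equal. Depth, estimated only roughly from the commonest low step in the values of genes with 1 coding length, was 25.8 to 32.3 M fragments per library. That step follows the scaling of the values, so the number of fragments sequenced may differ. The *Ntn1* level was 24.2 to 51.4 FPKM in the wild-type and control libraries and 10.7 to 16.3 FPKM in the mutants, with no overlap (log2 fold change -1.48 ± 0.29 against controls, adjusted p = 0.447 by limma). The 12 kidney genes, among them *Six2*, *Pax2* and *Ret*, summed to 525 to 610 FPKM, with ranges that overlapped between all groups. Control replicate 3 stood apart: 12 skeletal muscle genes summed to 788 FPKM there and to 19.9 to 172 FPKM in the other 9 libraries, while *Ret*, a receptor of the ureteric bud, was at 4.09 FPKM there and at 14.1 to 20.9 FPKM elsewhere. Transcripts of 4 Y-linked genes summed to 88.6 to 98.1 FPKM in 5 libraries, taken as male, and to 0.210 to 1.02 FPKM in the other 5. The males were 1 of 4 wild-type, 1 of 3 control and 3 of 3 mutant libraries, so that sex and *Ntn1* deletion can hardly be told apart.

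The macrophage genes were all transcribed in every library, at low levels for whole kidney. Together they made up 0.00298% to 0.00642% of the summed FPKM. *C1qb* was the most abundant with a mean of 6.75 ± 2.37 FPKM (SD, n = 10 libraries), followed by *C1qc* (5.26), *C1qa* (4.76), *Csf1r* (4.54), *Mrc1* (3.09), *Cd68* (2.93), *Cx3cr1* (2.30), *Adgre1* (1.53), *Lyve1* (1.51) and *Ptprc* (1.13). *C1qb* exceeded *C1qc* in 10 of 10 libraries, and *Cx3cr1* exceeded *Adgre1* in 10 of 10. The other neighbours in this order changed places in at least 1 library: *C1qa* exceeded *Csf1r* in 6 of 10, *Mrc1* exceeded *Cd68* in 5 of 10 and *Adgre1* exceeded *Lyve1* in 5 of 10. Among genes averaging 0.5 FPKM or more, the most abundant of the 10 lay at the 35.7th percentile and the least abundant at the 10.9th. Rough fragment counts per gene ran from 20.1 for *Lyve1* in its lowest library to 669 for *Csf1r* in its highest. Counting error alone was then 22.3% and 3.87%.

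All 10 genes had a lower mean log2 level in Ntn1SPKO than in Foxd1GC control kidneys, but none passed the test over all genes. The median log2 fold change was -0.45, from -0.82 for *Lyve1* to -0.16 for *Cd68*. All 14550 genes tested had a median of 0.0067, and 8.90% of them lay below the macrophage median. With limma on log2(FPKM + 0.1), none of the 10 genes reached an adjusted p under 0.1 with a 2-fold change, the rule for a call, which 0.055% of all genes met. At an unadjusted p under 0.05, 1 gene was lower, *C1qb*, where the background was 5.17%. The groups did not overlap for 2 of 10 genes, *C1qb* and *Ptprc*, against 8.91% of all genes that were lower without overlap. Adjusted p-values from limma were 0.447 to 0.730. The smallest p that an exact permutation test of 3 against 3 can give is 0.1. In whole kidney, fewer macrophages and less of these transcripts per macrophage cannot be told apart.

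The control group was wide. Control replicate 3 held the highest level of 8 of the 10 genes, and without it 8 of 10 were lower in the mutants, with a median log2 fold change of -0.24. Without control replicate 2, which was the lowest control for 9 genes, the median was -0.72 and 6 genes were lower at an unadjusted p under 0.05 by limma, as were 11.3% of all genes in that fit, and none was called. With embryo sex as a covariate 4 of 10 were lower and the median was 0.013, in a fit where the 1 male control stands for the group. That male, control replicate 2, lay within the range of the 3 male mutants for 7 genes, below it for 1 and above it for 2. The male wild-type library, replicate 3, lay within the mutant range for 4 genes and above it for 6.

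**Figure D1:**
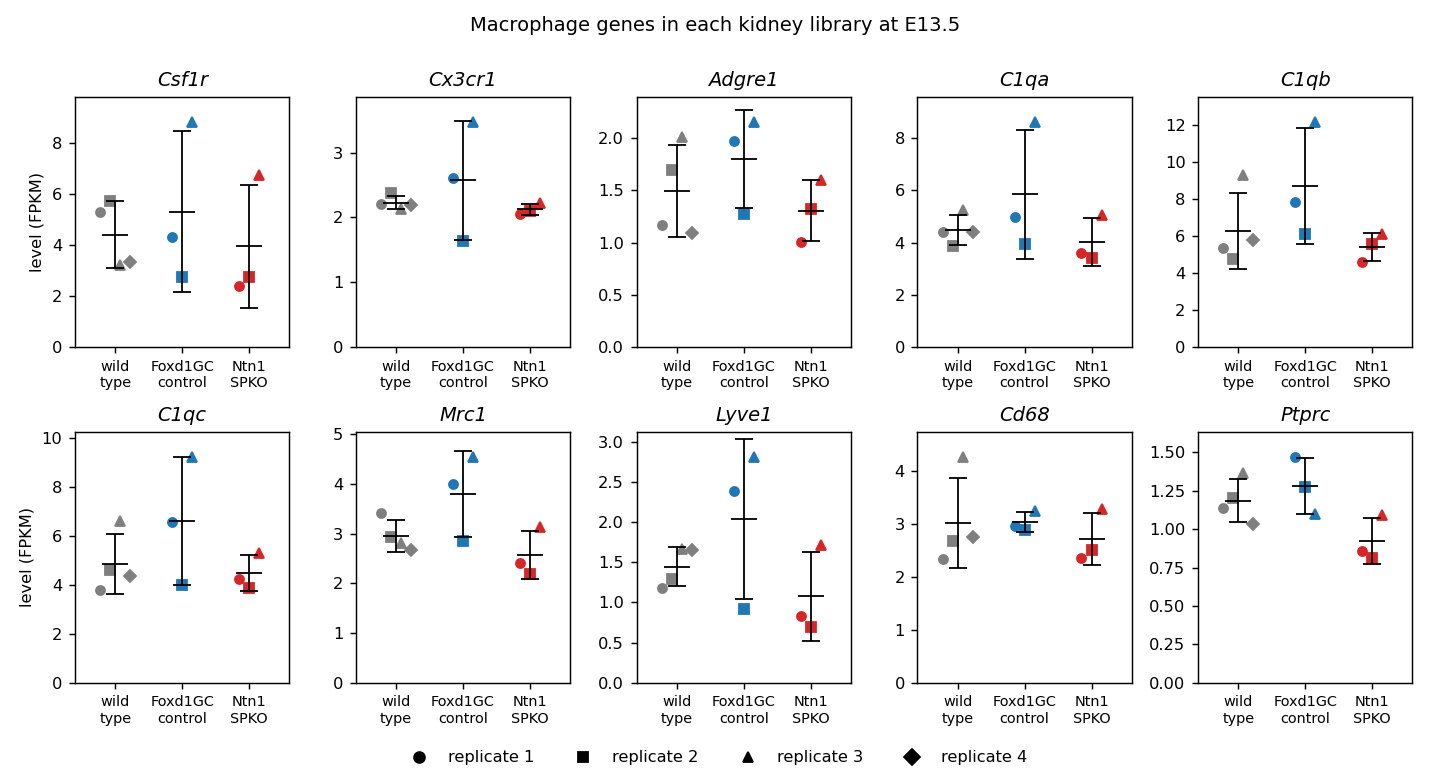
Level of each macrophage gene (y axis, FPKM, from 0) in every library of the 3 groups (x axis). Points are libraries, shaped by replicate number, and black bars are the group mean ± SD (n = 4, 3 and 3). Control replicate 3 is the highest point for 8 of the 10 genes, and the mutants lie below all controls only for *C1qb* and *Ptprc*.

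The receptors come first. *Csf1r* encodes the receptor that macrophages need to survive (chromosome 18, 61100598-61132149, plus strand, GRCm38). Its level was 5.31, 5.75, 3.24 and 3.35 FPKM in wild-type, 4.31, 2.76 and 8.83 FPKM in control and 2.39, 2.74 and 6.74 FPKM in mutant libraries. The 3 groups overlapped throughout, and both the control and the mutant group had 1 library far above the others. Mutants differed from controls by a log2 fold change of -0.41 ± 0.53 (SE), with a 95% interval of -1.69 to 0.88 that holds both a fall and a rise, and it was 0.036 without control replicate 3.

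*Cx3cr1*, the fractalkine receptor by which monocytes and macrophages sense Cx3cl1, was the steadiest gene outside the controls (chromosome 9, 119901616-120069879, minus strand). Levels were 2.20, 2.38, 2.13 and 2.19 FPKM in wild-type and 2.05, 2.10 and 2.22 FPKM in mutant libraries, coefficients of variation of 4.66% and 3.98%. The controls held 2.61, 1.63 and 3.47 FPKM, so that both the highest and the lowest of the 10 libraries were controls. The log2 fold change against controls was -0.20 ± 0.27 and that against wild type was -0.065 ± 0.11. Without control replicate 3 the first became 0.039.

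*Adgre1* encodes F4/80, the adhesion receptor used to stain mouse macrophages (chromosome 17, 57358691-57483527, plus strand). It read 1.17, 1.70, 2.01 and 1.09 FPKM in wild-type, 1.97, 1.27 and 2.16 FPKM in control and 1.01, 1.32 and 1.59 FPKM in mutant libraries. Mutants and controls overlapped through control replicate 2, and the log2 fold change was -0.42 ± 0.28, with a 95% interval of -1.09 to 0.24.

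C1q starts the classical complement pathway and tags dying cells for uptake. Its 3 chains are encoded side by side on the minus strand of chromosome 4, within 18675 bases (136880129-136898803): *C1qb* at 136880129-136886187, *C1qc* at 136889804-136893065 and *C1qa* at 136895917-136898803. The stretches before the starts of *C1qb* and *C1qc* are shown because these genes formed the most closely correlated pair of the 10 and the windows hold a core word bound by PU.1, the master factor of macrophages. They come from RefSeq (GRCm38.p6), read 5′ to 3′ on the minus strand, chr4:136886201-136886450 for *C1qb* and chr4:136893066-136893164 for *C1qc*, the latter cut at the first annotated exon. Capitals mark GAGGAA in *C1qb* and, as its reverse complement, GAGGAAGT in *C1qc*.
C1qb: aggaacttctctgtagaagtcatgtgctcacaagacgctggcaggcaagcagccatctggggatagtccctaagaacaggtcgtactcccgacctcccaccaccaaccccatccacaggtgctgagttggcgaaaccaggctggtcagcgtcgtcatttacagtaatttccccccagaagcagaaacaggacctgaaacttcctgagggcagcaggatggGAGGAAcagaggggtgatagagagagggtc
C1qc: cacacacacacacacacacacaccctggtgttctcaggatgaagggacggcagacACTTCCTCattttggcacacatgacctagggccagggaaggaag
Windows around the RefSeq start were found for 6 of the 10 genes, 7 windows in all with 2 for *Ptprc*. Searched on both strands, GAGGAAGT was in 1 of the 7 windows and in 3.20% of 32851 windows of all genes. GAGGAA, which that word contains, was in 5 of the 7 windows and in 28.3% of all windows. The 5 belonged to *Ptprc* (1 of its 2), *Mrc1*, *C1qb*, *C1qc* and *Cd68*. TATAAA was in 1 of the 7, a *Ptprc* window, and in 13.6% of all windows. A word match in a window is a description of its letters only. *Csf1r*, *Adgre1*, *C1qa* and *Lyve1* were not among the windows used.

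*C1qb* was one of the 2 genes whose mutants and controls did not overlap, by a narrow gap. Its level was 7.84, 6.10 and 12.2 FPKM in the controls and 4.61, 5.55 and 6.08 FPKM in the mutants, so that the highest mutant lay just under the lowest control. The wild-type libraries, at 5.34, 4.74, 9.28 and 5.77 FPKM, overlapped both groups. Against controls the log2 fold change was -0.63 ± 0.26 (95% interval -1.25 to -0.0043, unadjusted p = 0.0488 and adjusted p = 0.447 by limma). The exact permutation p was 0.1, the smallest that 3 against 3 allows. Against wild type it was -0.17 ± 0.23.

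*C1qa* read 4.43, 3.86, 5.25 and 4.43 FPKM in wild-type, 4.98, 3.94 and 8.63 FPKM in control and 3.60, 3.41 and 5.08 FPKM in mutant libraries. *C1qc* read 3.81, 4.62, 6.61 and 4.37 FPKM in wild-type, 6.59, 4.00 and 9.22 FPKM in control and 4.23, 3.89 and 5.31 FPKM in mutant libraries. Both chains overlapped between all groups, and both were highest in control replicate 3. Their log2 fold changes against controls were -0.47 ± 0.31 and -0.48 ± 0.30. The 3 chains kept close proportions: the ratio of *C1qb* to *C1qa* was 1.38 ± 0.26 in wild-type (SD, n = 4), 1.51 ± 0.089 in control (n = 3) and 1.37 ± 0.23 in mutant libraries (n = 3), and that of *C1qc* to *C1qa* was 1.08 ± 0.19, 1.14 ± 0.16 and 1.12 ± 0.067.

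*Mrc1*, the mannose receptor CD206, takes up glycoproteins (chromosome 2, 14229392-14332057, plus strand). It read 3.42, 2.94, 2.80 and 2.68 FPKM in wild-type, 4.00, 2.85 and 4.54 FPKM in control and 2.40, 2.19 and 3.12 FPKM in mutant libraries. The 2 high controls lay above all mutants, and control replicate 2 lay among them. The difference was a log2 fold change of -0.53 ± 0.22 against controls (95% interval -1.07 to 0.0030, adjusted p = 0.447 by limma) and -0.21 ± 0.15 against wild type.

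*Lyve1*, a hyaluronan receptor of perivascular macrophages and lymphatic vessels, had the lowest fragment counts of the 10 and, in mutants against controls with every library, the widest difference (chromosome 7, 110850607-110863239, minus strand). It read 1.18, 1.29, 1.67 and 1.65 FPKM in wild-type, 2.38, 0.918 and 2.81 FPKM in control and 0.833, 0.689 and 1.71 FPKM in mutant libraries, a 4.08-fold range over the 10 libraries. Mutants and controls overlapped, with a log2 fold change of -0.82 ± 0.50 against controls, with a 95% interval of -2.03 to 0.39, and -0.48 ± 0.31 against wild type. In controls against wild type *C1qb* (0.45) and *C1qc* (0.39) had larger differences than *Lyve1* (0.34). The ratio of *Lyve1* to *Mrc1* was 0.499 ± 0.129 in wild-type, 0.513 ± 0.165 in control and 0.403 ± 0.127 in mutant libraries (SD, n = 4, 3 and 3), a difference within the spread. Lymphatic and sinusoidal endothelium, the other source of both transcripts, had 5 of 8 tested markers lower and 3 higher in mutants against controls (median -0.12). Their summed levels were 50.5 to 53.2 FPKM in wild-type, 48.3 to 74.4 FPKM in control and 47.2 to 58.2 FPKM in mutant libraries. Much of these sums was *Pdpn* alone, at 25.0 to 31.2, 25.4 to 35.8 and 24.3 to 27.9 FPKM in the same order. The part of this endothelium in the *Lyve1* and *Mrc1* values was not tested.

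*Cd68*, a lysosomal membrane protein of phagocytes, had the value nearest to 0 in mutants against controls with every library (chromosome 11, 69664213-69666153, minus strand). It read 2.35, 2.69, 4.27 and 2.76 FPKM in wild-type, 2.96, 2.89 and 3.25 FPKM in control and 2.37, 2.51 and 3.28 FPKM in mutant libraries. Its highest library was wild-type replicate 3, not a control, and the 3 groups overlapped. Against controls the log2 fold change was -0.16 ± 0.16, with a 95% interval of -0.56 to 0.23. Against wild type it was -0.12 ± 0.22, farther from 0 than *Cx3cr1* (-0.065) and *C1qc* (-0.096).

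*Ptprc*, the CD45 phosphatase of white blood cells, was the other gene whose mutants and controls did not overlap (chromosome 1, 138062861-138175708, minus strand). It read 1.47, 1.27 and 1.10 FPKM in the controls and 0.855, 0.814 and 1.09 FPKM in the mutants, a gap between the groups that was narrow beside the spread within each. Wild-type libraries, at 1.14, 1.20, 1.37 and 1.04 FPKM, overlapped both. The log2 fold change was -0.44 ± 0.23 against controls (adjusted p = 0.461 by limma) and -0.34 ± 0.19 against wild type. *Ptprc* did not follow the library that was high for the others: control replicate 3 was the lowest control for it. The ratio of *Csf1r* to *Ptprc* therefore ran from 2.17 in control replicate 2 to 8.03 in control replicate 3.

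**Figure D2:**
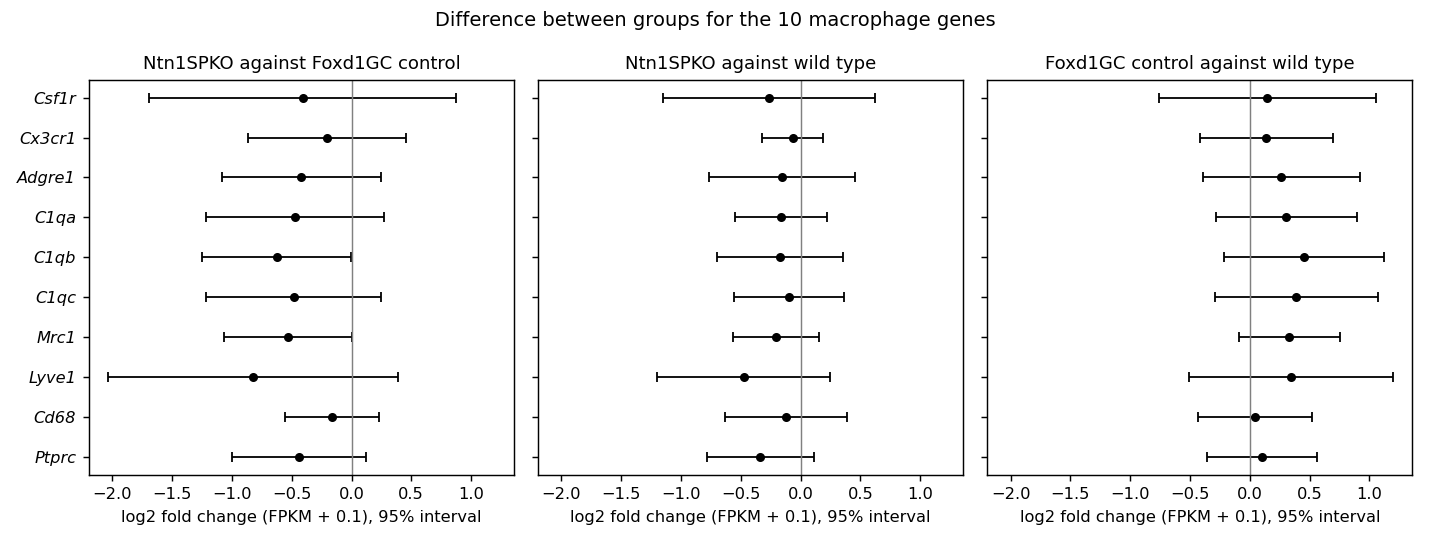
Log2 fold change of log2(FPKM + 0.1) with its 95% interval from limma (x axis) for each macrophage gene (y axis) in the 3 comparisons. The points lie left of 0 in both mutant comparisons and right of 0 for control against wild type, and only the interval of *C1qb* against controls leaves out 0.

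The wild-type kidneys were compared with each of the other groups to place the control values. These comparisons share their groups with the first, so their values are given side by side and not as separate evidence. Against wild type, all 10 genes were lower in Ntn1SPKO, with a median log2 fold change of -0.17 (range -0.48 to -0.065) beside 0.0034 for all 14432 genes tested. None of the 10 was called by limma (background 0.0485%), none had an unadjusted p under 0.05 (background 3.31% lower), and none separated without overlap (background 3.54% lower). Adjusted p-values were 0.947 to 0.956. The median was -0.087 with 7 of 10 lower without wild-type replicate 3, -0.062 with 8 of 10 lower without mutant replicate 1, -0.092 without mutant replicate 2 and -0.32 without mutant replicate 3. With embryo sex as a covariate it was -0.55 with 9 of 10 lower, in a fit where the 1 male wild-type library stands for the group. In that fit 22.5% of all genes had an adjusted p under 0.1 by limma. In Foxd1GC control against wild-type kidneys all 10 were higher, with a median of 0.28 (range 0.042 to 0.45) beside -0.0072 for all 14594 genes tested. None was called (background 0.00685%), none had an unadjusted p under 0.05 (background 3.84% higher and 3.23% lower) and none separated (background 4.04% higher), with adjusted p-values of 0.665 to 0.953. Without control replicate 3, 6 of the 10 remained higher and the median was 0.082.

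The signals that macrophages answer to were read from a list of 10 ligands and chemokines. Of these, 7 were tested in mutants against controls, with 6 lower, 1 higher and a median of -0.23. *Csf1*, the main Csf1r ligand, separated the control group from both others. It read 3.22, 2.76, 2.82 and 2.81 FPKM in wild-type, 3.86, 4.05 and 5.10 FPKM in control and 2.64, 2.51 and 3.25 FPKM in mutant libraries. All controls lay above all other libraries, while mutants and wild type overlapped. Without overlap, 8.91% of all genes were lower in mutants against controls and 4.04% were higher in controls against wild type. The log2 fold change was -0.61 ± 0.17 for mutant against control (unadjusted p = 0.0089, adjusted p = 0.447 by limma), 0.56 ± 0.14 for control against wild type (adjusted p = 0.665) and -0.058 ± 0.13 for mutant against wild type (adjusted p = 0.956). *Cx3cl1*, the ligand of Cx3cr1, was at 1.35 to 1.90 FPKM in wild-type, 1.52 to 1.61 FPKM in control and 1.25 to 1.37 FPKM in mutant libraries, a log2 fold change of -0.23 ± 0.17 against controls. *Il34*, the other Csf1r ligand, was at 0.0222 to 0.684 FPKM over the 10 libraries, under the level needed for testing. *Cxcl12*, a chemokine of stromal cells, was higher in mutants than in wild type without overlap (0.34 ± 0.097, adjusted p = 0.541 by limma). So were 3.56% of all genes, with 2.45% higher at an unadjusted p under 0.05. The *Cxcl12* mean was 84.8 FPKM in wild-type, 149 FPKM in control and 108 FPKM in mutant libraries, and mutants and controls overlapped.

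Of 30 other macrophage identity genes, 25 were tested in mutants against controls: 23 were lower and 2 higher (median -0.25), and 1 had an unadjusted p under 0.05, a share of the list below the 5.17% of all genes. That gene was *Laptm5*, a lysosomal protein of white blood cells, at 5.55, 5.89 and 7.91 FPKM in controls and 4.11, 3.87 and 3.94 FPKM in mutants without overlap (-0.67 ± 0.15, adjusted p = 0.447 by limma). The groups did not overlap for 5 of the 25, *Laptm5* among them, and all 5 were lower in the mutants. Of all genes, 8.91% were lower without overlap. *Tyrobp*, an adaptor of activating receptors, had -0.50 ± 0.28 and *Aif1*, which encodes Iba1, had -0.59 ± 0.53. *Spi1*, which encodes PU.1, had -0.030 ± 0.21, with 1.51 to 2.10 FPKM in controls and 1.59 to 2.21 FPKM in mutants. Of 16 perivascular and fetal tissue macrophage genes only 7 reached the level needed for testing, 6 lower and 1 higher (median -0.48). *F13a1*, a transglutaminase subunit of resident macrophages, was lower in mutants than in wild type without overlap (-0.70 ± 0.22, adjusted p = 0.651 by limma), as were 3.54% of all genes. *Cd163*, a scavenger receptor of mature tissue macrophages, did not exceed 0.0361 FPKM.

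Complement genes other than C1q split, with 9 lower and 8 higher of 17 tested among 27 listed (median -0.13). *Cd59a*, which blocks the membrane attack complex, was 6.18, 6.94 and 6.24 FPKM in controls and 4.03, 2.95 and 3.85 FPKM in mutants (-0.83 ± 0.15, adjusted p = 0.429 by limma). *Serping1*, the C1 inhibitor, had -0.59 ± 0.21, and the C3a receptor *C3ar1* had -0.47 ± 0.29. *Calr*, a chaperone that can bind C1q, was higher without overlap (0.15 ± 0.053), as were 11% of all genes, with 5.49% higher at an unadjusted p under 0.05. Of 15 genes for the uptake of dying cells, 14 were tested, 9 lower and 5 higher (median -0.16). *Gas6*, the bridging ligand of Axl and Mertk, was 8.71, 7.33 and 8.66 FPKM in controls and 5.34, 5.06 and 7.20 FPKM in mutants (-0.49 ± 0.16, adjusted p = 0.447 by limma), and the adaptor *Gulp1* had -0.48 ± 0.17.

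Markers of other blood cells and tissues also had lower values in mutants than in controls, though none was called. Pan-leukocyte genes were lower for 15 of 17 tested (median -0.22), platelet and megakaryocyte genes for 5 of 5 (-0.85), erythroid genes for 12 of 12 (-0.71), liver genes for 7 of 7 (-1.50) and skeletal muscle genes for 11 of 11 (-2.53) in mutants against controls. Their adjusted p-values by limma were all 0.447 or more. At an unadjusted p under 0.05 by limma, 5 liver, 3 skeletal muscle and 1 platelet gene were lower, beside 5.17% of all genes. No erythroid or pan-leukocyte gene reached that p. Against wild type the lists did not share 1 direction: all 12 erythroid genes were higher in the mutants (median 0.30), while the 10 macrophage genes (-0.17), platelet (5 of 5, -0.38), liver (5 of 5, -0.73) and skeletal muscle genes (9 of 10, -1.84) were lower. In controls against wild type, erythroid (12 of 12, median 1.04), liver (7 of 7, 0.93) and skeletal muscle genes (11 of 11, 0.69) were higher. So were platelet (5 of 5, 0.54) and pan-leukocyte genes (14 of 17, 0.16), beside 0.28 for the 10 macrophage genes. At an unadjusted p under 0.05 by limma, 11 erythroid, 2 pan-leukocyte and 1 skeletal muscle gene were higher there, beside 3.84% of all genes. Adjusted p-values were 0.665 or more. Summed erythroid levels were 4785 to 10823 FPKM in wild-type, 7965 to 18143 FPKM in control and 4909 to 18676 FPKM in mutant libraries, and summed liver levels were 11.8 to 30.8, 17.9 to 40.1 and 9.47 to 19.7 FPKM. Monocyte genes were lower for 5 of 5 (-0.24), neutrophil genes for 2 of 2 (-0.50) and lymphocyte genes for 2 of 2 (-0.19), of 12, 12 and 16 listed, and none of 10 mast cell genes was tested. Summed neutrophil, mast cell and lymphocyte levels did not exceed 5.58, 2.82 and 5.07 FPKM in any library, and the T cell marker *Cd3e* did not exceed 0.0313 FPKM. Pan-endothelial genes were lower for 4 and higher for 7 of 11 (0.017), and kidney genes lower for 4 and higher for 8 of 12 (0.061). The part of blood, liver and muscle RNA in the macrophage values was not tested.

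**Figure D3:**
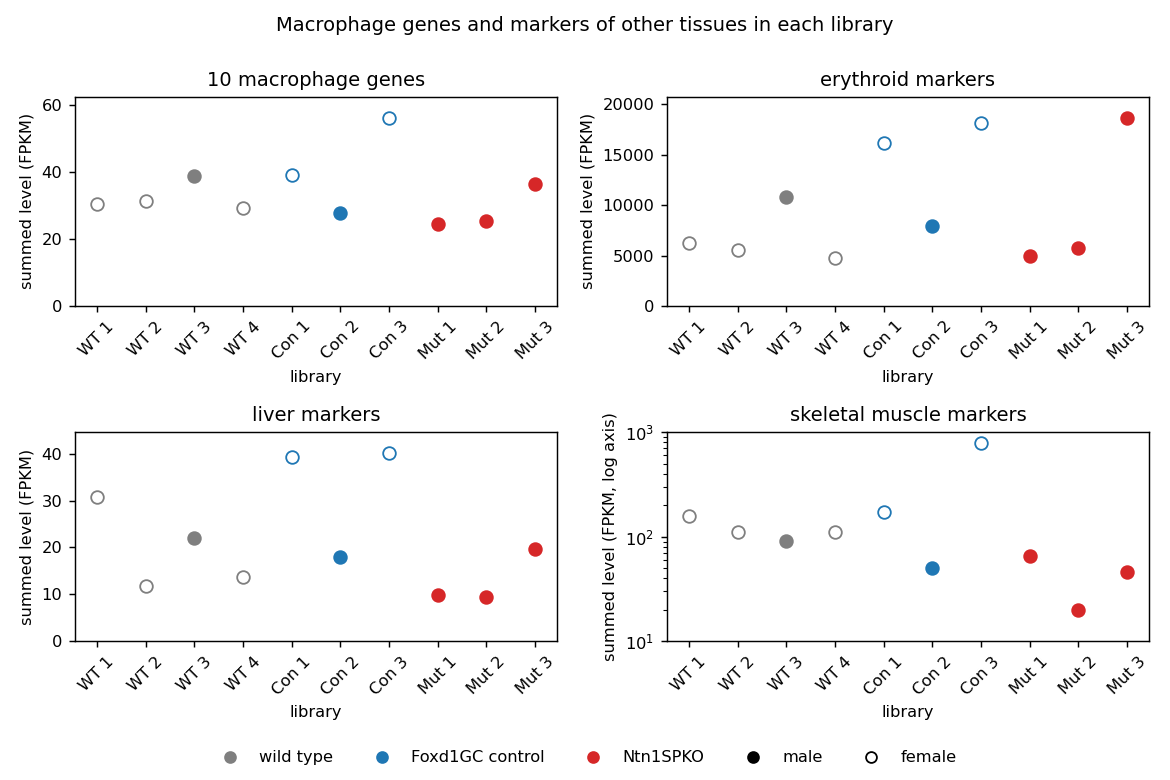
Summed level (y axes, FPKM; log axis for skeletal muscle) of the 10 macrophage genes and of erythroid, liver and skeletal muscle markers in each library (x axes; WT, wild type; Con, Foxd1GC control; Mut, Ntn1SPKO). Filled points are male libraries. Control replicate 3 is highest for the macrophage genes, at 56.2 FPKM, and for muscle, and mutant replicate 3 is the highest mutant for macrophage and erythroid genes.

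Levels of the 10 genes tended to vary in the same direction from library to library, though the pair calls below rested on control replicate 3. Over the 10 libraries all 45 pairs had a positive Pearson r of log2 level, with a median of 0.70 (range 0.10 to 0.91), and 4.71% of pairs among all tested genes exceeded that median. By permutation test with adjustment over the 45 pairs, 24 pairs had an adjusted p under 0.05 for r and 14 for Spearman's rho, whose median was 0.64. The C1q chains were among the closest: *C1qb* and *C1qc* had r = 0.91 (rho = 0.70, permutation p = 0.0012 for r and 0.031 for rho, adjusted 0.0091 and 0.069), *C1qa* and *C1qc* 0.90, and *C1qa* and *C1qb* 0.89. *C1qa* and *Lyve1* had r = 0.87 and the highest rho, 0.92. *Ptprc* and *Cd68* followed the others least, with 0.10 for *Cx3cr1* and *Ptprc* as the lowest and 0.19 for *Cx3cr1* and *Cd68* as the next. After group means were removed the median was 0.62. Without the 2 libraries farthest from the median of the first gene the median was 0.61, and r of *C1qb* and *C1qc* was 0.68. Without control replicate 3 the median was 0.61 with 44 of 45 pairs positive, but 0 pairs had an adjusted p under 0.05 by exact permutation, so the calls rested on that library. They numbered 12 without control replicate 1 and 10 without mutant replicate 1. These values share each library's depth and makeup.

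**Figure D4:**
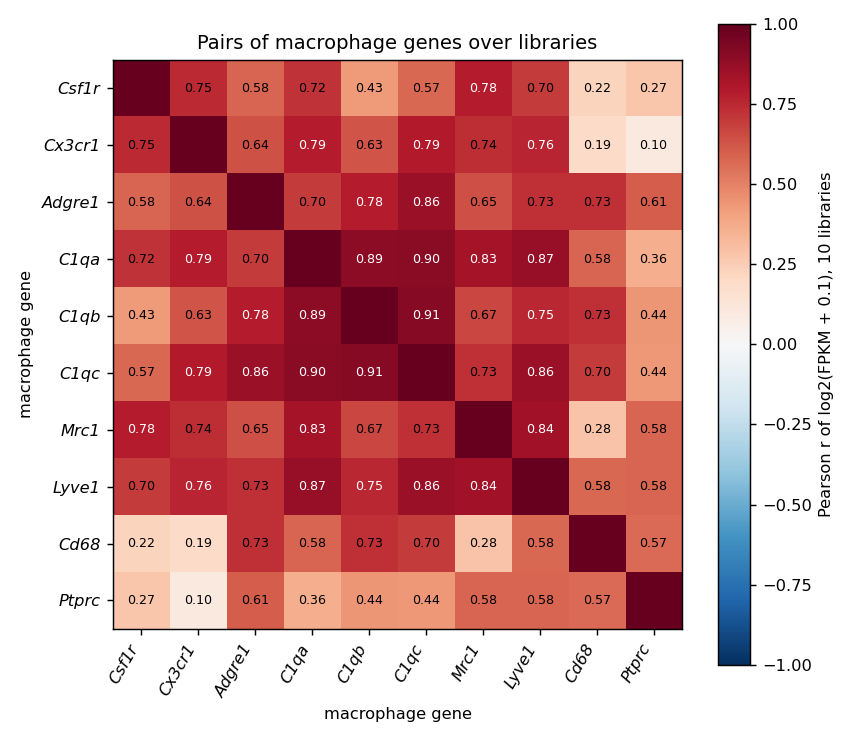
Pearson r of log2(FPKM + 0.1) over the 10 libraries for each pair of macrophage genes (both axes), from -1 (blue) to 1 (red). The block of *C1qa*, *C1qb* and *C1qc* reads 0.89 to 0.91, and the palest cells, down to 0.10, are those of *Cd68* and *Ptprc*.

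The joint profile, the mean of the 10 z-scored log2 levels, was highest in control replicate 3 (1.58), control replicate 1 (0.78) and wild-type replicate 3 (0.62), and lowest in mutant replicates 1 (-1.04) and 2 (-0.97), with mutant replicate 3 at 0.28. Among 14524 other genes the 10 most like it were *Mxra8* (r = 0.95), *Plppr1*, *Fam129a*, *Erp29*, *Angptl4*, *Dennd1b*, *Pms1*, *Pyroxd2*, *C3ar1* and *Cd40* (r = 0.94). Of these, *C3ar1* is a complement receptor of myeloid cells and *Cd40* a costimulatory receptor of antigen-presenting cells. After removal of group means r was 0.90 to 0.96 for these 10, and without control replicate 3 it was 0.88 to 0.94. With 14524 genes and 10 libraries such values are a description. Of the 100 genes most like the profile, 2 came from the macrophage identity, perivascular macrophage and pan-leukocyte lists, and 4 without control replicate 3. These lists held 49 of the 14524 genes ranked, and the median of the 49 lay at the 86.6th percentile of r.

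By list, the median r with the profile was 0.76 for perivascular macrophage genes, 0.60 for macrophage identity and 0.59 for pan-leukocyte genes. For markers of other cells it was 0.81 for platelet, 0.81 for erythroid, 0.75 for liver and 0.72 for skeletal muscle genes. Complement genes had 0.46, growth and recruitment signals 0.43, monocyte genes 0.29, lymphatic and sinusoidal endothelium 0.24, uptake genes 0.22, pan-endothelial genes -0.10 and kidney genes -0.22. Without control replicate 3 the medians were 0.63 for perivascular, 0.41 for identity and 0.30 for pan-leukocyte genes, 0.71 for platelet, 0.74 for erythroid and 0.68 for liver genes, and 0.41 for skeletal muscle genes. The medians of platelet, erythroid and liver genes were above that of macrophage identity genes with and without that library, and the part of blood and liver RNA in the joint profile was not tested.

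**Figure D5:**
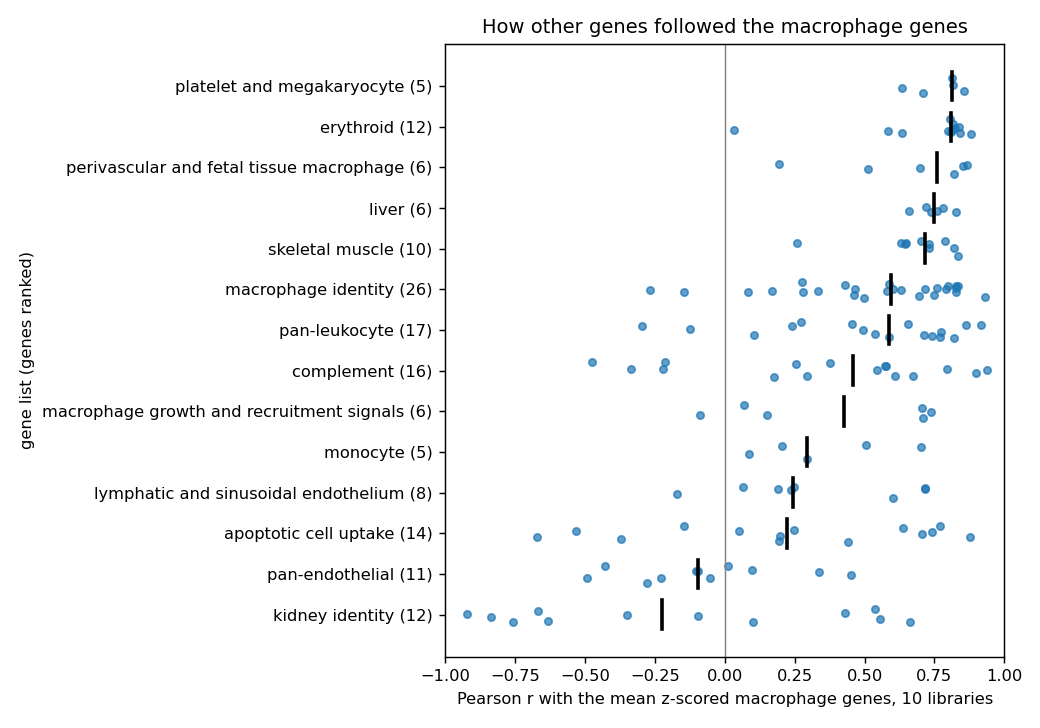
Pearson r over the 10 libraries between each gene of a list and the mean z-scored macrophage genes (x axis), for lists with at least 5 ranked genes (y axis, number of genes in parentheses). Points are genes and black bars are list medians, from 0.81 for platelet and erythroid genes to -0.22 for kidney genes.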

How the data were processed

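RNA from dissected E13.5 kidneys was sequenced by the authors. Per the study's methods and the submitters' processing notes, reads were demultiplexed (bcl2fastq 2.17.1.14) and transcripts quantified with Salmon (version not given in the sources used here) on coding sequences of GRCm38. The deposited table holds FPKM per gene for 10 libraries. Median-of-ratios factors of the deposited FPKM were 1.00 in every library, and no counts were used. Lengths are coding lengths.

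Levels were tested as log2(FPKM + 0.1) with limma 3.58.1 (R 4.3.3; intensity trend, only the 2 groups compared), over genes averaging 0.5 FPKM or more in those libraries. All 10 genes passed. P-values were two-sided and Benjamini-Hochberg adjusted over all genes, with calls at an adjusted p under 0.1 and 2-fold. A fold change on this scale understates that of low genes. Correlations used 100000 permutations (exact for 9 libraries). P-values measure the spread between libraries, whose separate origin the labels do not state. The scripts were tested on simulated data.

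The 10 genes and 18 lists of other genes were chosen with earlier results of these data known. Named in the text were the 10 genes, *Ntn1*, 7 signal and identity genes, up to 2 genes per list and comparison with the smallest p under 0.05 and no overlap, and the 10 most like the members. Genes outside this rule (*Cd163*, *Cd3e*, *Six2*, *Pax2*, *Ret*) were chosen after their values were seen. Positions are from GENCODE M21 (GRCm38). Alternatives covered pseudocount, filter, scaling, trend, pooled fit, replicate block, embryo sex and each library left out.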

Additional observations from a re-analysis of the deposited data

How the results depend on the processing

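No gene was called under any alternative. For mutant against control, 162 of 170 single-gene values kept their direction and side of the threshold. The counts were 173 of 180 for mutant against wild type and 174 of 180 for control against wild type. They include settings that could hardly turn a direction. Filter, trend and pooled-fit settings leave a log2 fold change as it is, and median-of-ratios factors were already 1.00. In mutants against controls the replicate block leaves it too. In mutants against controls, embryo sex as a covariate moved the median log2 fold change to 0.013 and turned *Csf1r* (0.35), *Cx3cr1* (0.36), *Adgre1* (0.015), *C1qa* (0.010), *C1qc* (0.15) and *Lyve1* (0.11); all other settings that kept every library gave -0.48 to -0.37. Genes with an unadjusted p under 0.05 numbered 0 with pseudocount 1, no filter, quantile normalization or embryo sex, and 4 with the replicate block. All 4 were lower, as were 5.63% of all genes at that p in the replicate-block fit. Leaving out 1 library gave medians of -0.72 (without control replicate 2) to -0.24 (without control replicate 3) and 0 to 6 such genes, with *Csf1r* at -0.86 to 0.036 and *Cx3cr1* at -0.48 to 0.039. The 6 came without control replicate 2, where 11.3% of all genes were lower at that p. In mutants against wild type, embryo sex gave a median of -0.55 and 3 such genes, with *Csf1r* at 0.13 and *C1qb* at -0.78 (adjusted p = 0.0419 by limma, under 2-fold), in a fit where 22.5% of all genes had an adjusted p under 0.1, and no intensity trend gave 1. Leaving out 1 library gave medians of -0.32 to -0.062 and 0 to 4 such genes (4 without mutant replicate 3), with *Csf1r* at -0.72 to 0.012, *Adgre1* at -0.30 to 0.0024, *C1qb* at -0.29 to 0.029, *C1qc* at -0.22 to 0.060 and *Cd68* at -0.26 to 0.051. Of all genes, 3.11% were lower at that p without mutant replicate 3, 16.2% with embryo sex and 3.61% with no intensity trend. In controls against wild type, the replicate block gave 1 such gene and quantile normalization turned *Cd68* (-0.019). Leaving out 1 library gave medians of 0.082 (without control replicate 3) to 0.52 (without control replicate 2) and 0 to 4 such genes (4 without control replicate 2, 1 without wild-type replicate 3), with *Csf1r* at -0.30 to 0.52, *Cx3cr1* at -0.10 to 0.42, *C1qa* at -0.011 to 0.55 and *Cd68* at -0.062 to 0.22. Of all genes, 7.81% were higher at that p without control replicate 2, 5.25% without wild-type replicate 3 and 3.8% with the replicate block. Correlated pairs numbered 13 after rescaling to the same total, 10 after quantile normalization and 0 (without control replicate 3) to 31 (without wild-type replicate 3). The causes were not tested. Likeness without control replicate 3 was an alternative chosen after seeing the data. The labels do not say whether same-numbered libraries share a litter or a batch. Their deviations from group means correlated by -0.039 to 0.078, which cannot exclude a shared origin. Rough depth leaves up to 22.3% counting error per value.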

Other observations

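*Hdc*, the histamine-making enzyme of mast cells and basophils, was at 0.427, 1.38, 1.82 and 0.519 FPKM in wild-type and did not exceed 0.306 FPKM in any control or mutant library. It passed the filter on low values only through the wild-type libraries, so no test is given. *Foxd1*, the stromal gene that carries the Cre allele, was at 21.3 to 30.7 FPKM in wild-type, 14.6 to 25.6 FPKM in control and 14.2 to 15.4 FPKM in mutant libraries, and its log2 fold change for mutant against wild type was -0.72 ± 0.13 (adjusted p = 0.193 by limma).

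Among vessel genes, *Egfl7*, a matrix protein of endothelium, was higher in all controls than in all other libraries, with log2 fold changes of 0.72 ± 0.13 for control against wild type and -0.44 ± 0.13 for mutant against control (adjusted p = 0.665 and 0.447 by limma). Without overlap, 4.04% of all genes were higher in the first comparison and 8.91% were lower in the second. The endothelial factor *Erg* had log2 fold changes of 0.28 ± 0.093 for mutant against control and 0.43 ± 0.14 for mutant against wild type (adjusted p = 0.447 and 0.667 by limma), with the mutants above all other libraries. Of all genes, 11% were higher without overlap in the first comparison and 3.56% in the second.

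*Maf*, a gene of the macrophage identity list, was higher in mutants than in wild type without overlap (0.15 ± 0.058, adjusted p = 0.796 by limma). So were 3.56% of all genes. The *Maf* mean was 13.4 FPKM in wild-type, 16.4 FPKM in control and 14.9 FPKM in mutant libraries, and mutants and controls overlapped.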
